A study of Mus musculus with 39 samples.

Results

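The genes described here encode the machinery that docks, primes and fuses synaptic vesicles. They were chosen by symbol: all genes named *Syt*, *Stx*, *Stxbp*, *Vamp*, *Rims*, *Unc13*, *Cplx* or *Sv2* with a number or letter, together with *Snap23*, *Snap25*, *Snap29*, *Snap47*, *Snap91*, *Syn1*, *Syn2*, *Syn3*, *Syp* and *Synpr*, while the synaptotagmin-like *Sytl* genes were left out. This rule found 68 of 25429 probe sets, each probe set standing for 1 gene. They comprise 17 synaptotagmins, 14 syntaxins, 7 VAMPs, 6 syntaxin-binding proteins, 4 RIMs, 4 complexins, 4 members of the SNAP-25 family, 3 Munc13 genes, 3 SV2 genes, 3 synapsins, 2 physins and AP180 (*Snap91*).

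RNA from punches of hypothalamus, hippocampus, amygdala and cortex was hybridized to 39 Affymetrix Mouse Gene 2.0 ST arrays, 1 for each mouse and region. The control mice carried the floxed *Pianp* allele without its deletion. The PianpKO mice came from the allele Pianptm1a(KOMP)Wtsi, crossed to ACTFLPe mice and then to CMV-cre mice, so that *Pianp* was deleted in the whole body and in all cell types. Males were used, 5 per genotype, and the control amygdala had 4 samples (mice 1, 2, 3 and 5). Values are log2 intensities on a common scale whose median over all probe sets and arrays was 4.62 and whose range was 2.75 to 13.91. Between arrays of a group the correlation over all probe sets was 0.989 to 0.996. *Pianp* itself lay between 7.08 and 8.16 in the 19 control samples and between 5.10 and 6.17 in the 20 PianpKO samples, without overlap. In bulk tissue, fewer cells of a type and less RNA per cell cannot be told apart.

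A synaptic vesicle fuses when VAMP on the vesicle zips together with syntaxin and SNAP-25 on the plasma membrane into the SNARE complex. Munc13 and RIM proteins prepare docked vesicles for this step, complexins hold and help the assembled complex, and synaptotagmins on the vesicle trigger fusion when they bind calcium. Most of these proteins exist in several copies from related genes, and neuron types differ in which copies they use. Many syntaxins and VAMPs also work outside the synapse, in transport through the Golgi apparatus and endosomes.

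Of the 68 genes, 64 had a mean level above the median of the array scale, and *Stx19*, *Cplx4*, *Stx11* and *Syt8* lay below it. In control mice, 40 of 68 genes (58.8%) differed among the 4 regions (limma, moderated F test with mouse as a random block, adjusted p under 0.05), against 27.6% of all probe sets. In PianpKO mice it was again 40 of 68, against 26.9% of all probe sets. Brighter probe sets passed more often. When the 12716 probe sets with a mean above the median were fitted alone, with p-values adjusted over these alone, 54.2% of them differed among regions in control mice. In that fit 46 of the 64 brighter genes of release did (71.9%). That fit also estimated the variances and the correlation within a mouse anew, so its counts can exceed those over all probe sets. The distance between the highest and the lowest region mean of control mice was above 0.5 on the log2 scale for 24 genes, above 1 for 11 and above 2 for *Syt9* and *Syt10*, with a median of 0.344. The highest region was the cortex for 28 genes, the hippocampus for 16, the hypothalamus for 14 and the amygdala for 10, and the hypothalamus was the lowest region for 23.

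**Figure D1:**
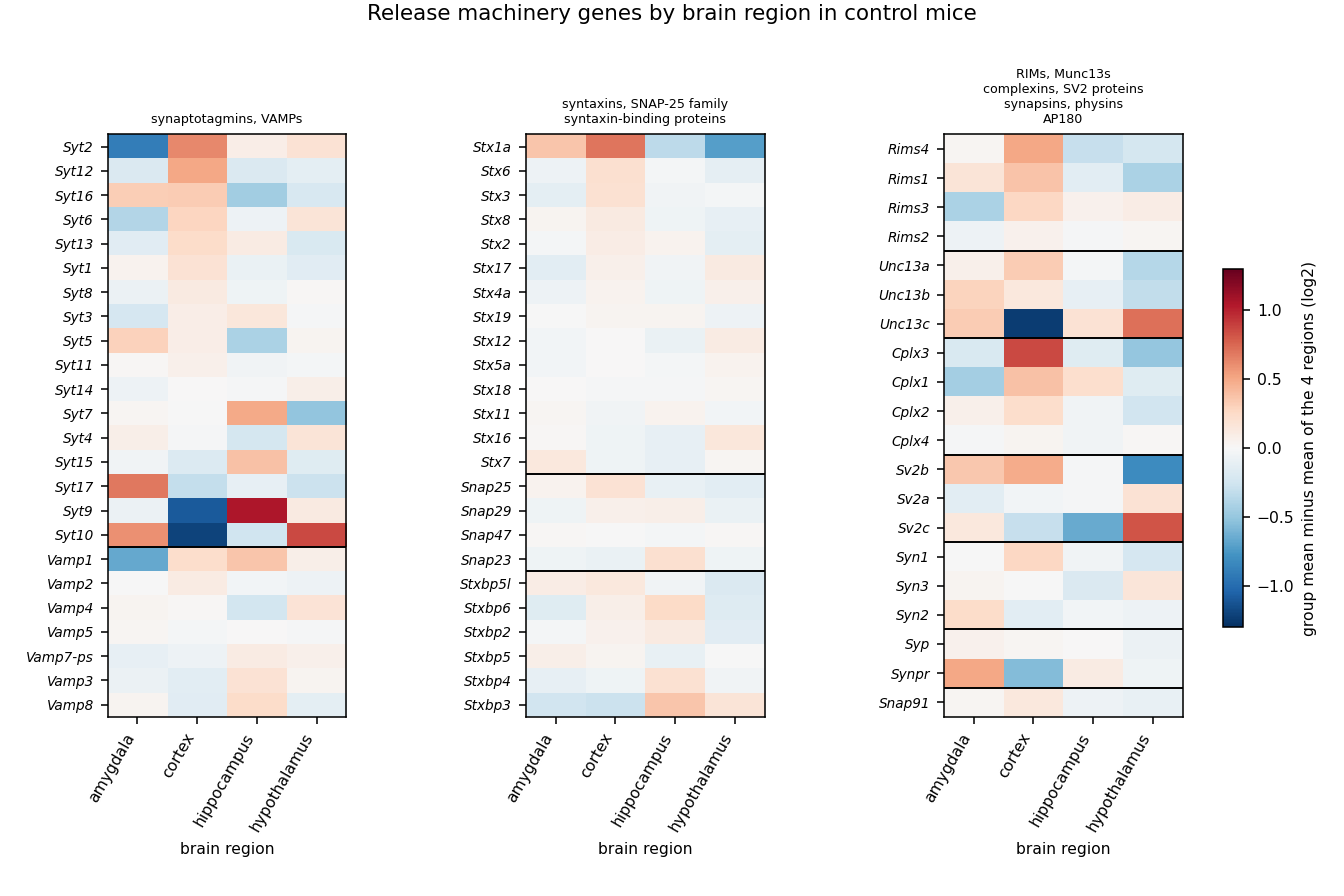
Mean log2 level of each of the 68 genes in the 4 regions, in control mice, as the difference from the mean of the gene over the regions. Color runs from blue (lower) to red (higher) on the log2 scale, and lines separate the families. The cortex column carries the strongest blue for *Unc13c*, *Syt10* and *Syt9* and red for *Cplx3*.

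The largest differences of the cortex from the other regions belonged to *Unc13c*, *Syt10* and *Syt9*, which were low there, and *Cplx3*, which was high. The 250 bases before the transcription start of these 4 genes are shown because their levels set the cortex apart most. They are RefSeq sequences of build GRCm38.p6, printed 5′ to 3′ on the strand of the gene, with capitals for matches to CCAAT, GGGGCGGGG or CACGTG on either strand. The windows are chr9:73969038-73969287 (minus strand) for *Unc13c*, chr15:89841861-89842110 (minus strand) for *Syt10*, chr7:107370540-107370789 (plus strand) for *Syt9* and chr9:57606282-57606531 (minus strand) for *Cplx3*.
Unc13c: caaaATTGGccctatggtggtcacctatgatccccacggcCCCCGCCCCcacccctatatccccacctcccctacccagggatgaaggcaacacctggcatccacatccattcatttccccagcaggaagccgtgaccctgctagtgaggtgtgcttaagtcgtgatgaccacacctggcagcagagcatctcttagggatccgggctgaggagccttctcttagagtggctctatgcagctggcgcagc
Syt10: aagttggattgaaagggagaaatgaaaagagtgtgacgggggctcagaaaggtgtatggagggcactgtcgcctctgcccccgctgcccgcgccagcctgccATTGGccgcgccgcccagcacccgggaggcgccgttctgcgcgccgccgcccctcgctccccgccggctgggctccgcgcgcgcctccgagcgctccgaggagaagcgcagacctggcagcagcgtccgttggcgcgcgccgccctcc
Syt9: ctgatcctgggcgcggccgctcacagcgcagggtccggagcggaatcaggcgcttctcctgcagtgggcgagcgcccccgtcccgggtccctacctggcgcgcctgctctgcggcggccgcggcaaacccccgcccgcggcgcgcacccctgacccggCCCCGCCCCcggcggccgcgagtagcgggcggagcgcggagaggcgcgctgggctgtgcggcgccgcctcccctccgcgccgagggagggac
Cplx3: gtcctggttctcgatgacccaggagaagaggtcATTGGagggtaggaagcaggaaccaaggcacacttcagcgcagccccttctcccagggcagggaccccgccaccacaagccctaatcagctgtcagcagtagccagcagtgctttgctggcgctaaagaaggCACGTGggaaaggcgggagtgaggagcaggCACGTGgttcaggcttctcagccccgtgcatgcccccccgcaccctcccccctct
CCAAT, the letters bound by NF-Y, lies at -246 in *Unc13c*, -148 in *Syt10* and -217 in *Cplx3*, in each case on the opposite strand as ATTGG. GGGGCGGGG, a GC box, lies at -210 in *Unc13c* and -92 in *Syt9*, and CACGTG, an E-box, lies at -85 and -55 in *Cplx3*. Of the 68 genes, 54 were matched to a promoter window. GGGGCGGGG was found in 35.2% of these and in 11.8% of the windows of 27025 genes, CACGTG in 14.8% and 6.86%, CCAAT in 35.2% and 37.5%, TATAAA in 5.56% and 14.3%, and the cyclic AMP element TGACGTCA in 3.7% and 1.77%. The median GC content was 62.8% for the 54 genes and 52.8% over all genes, with the richest window taken where a gene has several starts. GGGGCGGGG and CACGTG hold G and C in most of their letters, and the higher shares were not separated from base composition. A match is a description of these letters and not a bound site.

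The SNARE proteins of fast release are Stx1a and Snap25 on the plasma membrane and Vamp1 and Vamp2 on the vesicle. *Stx1a* was highest in the cortex of control mice, with values of 10.31, 10.44, 10.23, 10.20 and 10.37 in replicates 1 to 5. In the hypothalamus the values were 8.03, 9.17, 8.66, 9.42 and 9.19, and in the hippocampus 8.62, 9.07, 9.72, 9.48 and 9.45. Every cortex sample lay above every hippocampus and hypothalamus sample and above the 4 amygdala samples (9.69 to 10.14), and control replicate 1 was the lowest sample of the hypothalamus and of the hippocampus. Against the mean of the other 3 regions, *Stx1a* was 0.93 ± 0.17 higher in the cortex (log2 difference ± SE, 1.9-fold, limma, adjusted p = 0.000545) and -0.96 ± 0.17 in the hypothalamus (adjusted p = 0.000466). Without the hypothalamus sample of control replicate 1, the hypothalamus difference was -0.76. PianpKO mice gave 0.77 in the cortex and -0.62 in the hypothalamus, both called.

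*Snap25* was among the most intense probe sets of the array, with region means of 12.96 to 13.29 in control mice. It was 0.25 higher in the cortex (limma, adjusted p = 0.00437) and -0.18 in the hypothalamus (adjusted p = 0.042) than in the other regions. In PianpKO mice no gene of the SNAP-25 family was called in the hypothalamus (limma, lowest adjusted p = 0.0983). In the hypothalamus, control replicate 1 was at 12.67 and the other control samples were at 12.94 to 13.14. Values this near the top of the scale are set by rank in quantile normalization, and 4 of 5 control and all 5 PianpKO cortex samples shared the value 13.25. *Vamp2*, the main VAMP of forebrain vesicles, did not pass the region test (region means 10.77 to 10.95, limma, adjusted p = 0.238).

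*Vamp1*, the paralog that many fast-firing neurons use, was low in the amygdala: 7.88, 7.81, 8.31 and 8.21 in control replicates 1, 2, 3 and 5. All other control samples lay between 8.61 and 9.16, so the amygdala did not overlap them. The amygdala difference was -0.89 ± 0.0885 (fold of 0.539, limma, adjusted p = 6.19e-06), and in PianpKO mice it was -0.89 as well. In the hippocampus *Vamp1* was 0.48 higher than the mean of the other 3 regions, the low amygdala among them (limma, adjusted p = 0.00045). The control hippocampus samples (8.99 to 9.15) overlapped those of the cortex (8.79 to 9.16) and of the hypothalamus (8.61 to 9.08).

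Of the proteins that bind syntaxins, *Stxbp3* (Munc18-3, which serves exocytosis in many tissues) was 7.47 ± 0.27 (SD, n = 5) in the control hippocampus and 6.83 ± 0.12 in the cortex. *Stxbp6* (amisyn, a syntaxin-binding inhibitor of fusion) was 8.39 ± 0.26 and 8.22 ± 0.10 there. Against the other 3 regions the hippocampus differences were 0.48 (limma, adjusted p = 0.00117) and 0.33 (adjusted p = 0.00855). *Stxbp6* was not called without control replicate 1 or without control replicate 5 (0.29 and 0.27, limma, highest adjusted p = 0.0816). *Vamp8*, a VAMP of late endosomes, was 0.32 higher in the hippocampus (limma, adjusted p = 0.0448), and this call was lost in 7 alternative settings. *Vamp7-ps* is a pseudogene close in sequence to its parent gene, so that its signal cannot be assigned, and it did not pass the region test.

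Among the synaptotagmins, the distance between the highest and the lowest region mean of control mice ran from 0.11 for *Syt11* to 2.14 for *Syt9*. Syt1, Syt2 and Syt9 are the sensors of fast synchronous release, and neurons generally rely on a subset of them. *Syt1* was intense everywhere (region means 12.22 to 12.56 in control mice), 0.25 higher in the cortex (limma, adjusted p = 0.000952) and -0.20 in the hypothalamus (adjusted p = 0.00743). *Syt2*, in contrast, was 8.52, 8.37, 8.31, 8.30 and 8.24 in the control cortex and 6.86, 6.91, 7.06 and 6.47 in the amygdala. The hippocampus (median 7.84) and the hypothalamus (median 7.92) lay between them and overlapped each other. The amygdala was -1.21 ± 0.0819 from the other regions (fold of 0.433, limma, adjusted p = 2.16e-07) and the cortex 0.83 ± 0.0754 (1.78-fold, adjusted p = 2.23e-07). In PianpKO mice the differences were -1.02 and 0.87.

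*Syt9* had the widest span of all 68 genes, 4.41-fold between hippocampus and cortex. Its values in the control hippocampus were 8.74, 8.07, 7.49, 8.71 and 8.44, and in the cortex 5.85, 6.10, 6.10, 6.12 and 6.56. All hippocampus samples lay above all samples of the other regions and all cortex samples below them, with control replicate 3 the lowest in the hippocampus. The hippocampus was 1.40 ± 0.137 higher (2.64-fold, limma, adjusted p = 1.24e-06) and the cortex -1.46 ± 0.137 (fold of 0.364, adjusted p = 3.3e-07). In the PianpKO hippocampus the values spread from 7.01 to 9.06 and overlapped the hypothalamus (7.30 to 7.67), and the difference was 1.03 (limma, adjusted p = 0.00109).

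The hippocampus punches also carried markers of neighboring tissue. All 6 thalamus markers were higher there in control mice, with a median of 1.54, and so were all 7 choroid plexus markers (median 1.79) and all 8 oligodendrocyte markers (median 0.78). Of 10 hippocampal granule and pyramidal cell markers, 7 were higher and 1 was lower (median 1.03). The mean of the thalamus markers was 8.54, 8.07, 7.74, 8.29 and 8.27 in control hippocampus replicates 1 to 5 and 7.51, 7.35, 8.32, 8.54 and 7.91 in PianpKO hippocampus replicates 1 to 5, against 5.87 to 7.24 in all other samples. Replicate 3 had the lowest *Syt9* and the lowest thalamus markers among control hippocampus samples, and in PianpKO mice replicates 1 and 2 had the lowest of both and replicate 4 the highest of both. The part of these tissues in the hippocampus differences was not tested.

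*Syt10*, a calcium sensor known in mice from olfactory bulb neurons that secrete IGF-1, was 9.54, 9.42, 9.20, 8.91 and 9.13 in the control hypothalamus. In the amygdala it was 9.24, 8.76, 8.84 and 9.05, while the cortex had 7.01, 7.35, 6.95, 7.46 and 7.09. Hypothalamus and amygdala overlapped, the hippocampus lay lower (7.83 to 8.38), and all cortex samples lay below every other sample. The cortex difference was -1.61 ± 0.113 (limma, adjusted p = 1.17e-08), that of the hypothalamus 1.15 ± 0.113 (adjusted p = 1.02e-06) and that of the amygdala 0.80 ± 0.122 (adjusted p = 0.000433). PianpKO mice gave -1.35, 0.92 and 0.76, all called.

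*Syt7*, the sensor of asynchronous release and facilitation, was 9.68, 9.68, 9.52, 9.68 and 9.59 in the control hippocampus and 8.58, 8.66, 8.54, 8.91 and 8.38 in the hypothalamus. The hippocampus lay above all other control samples and the hypothalamus below them. The hippocampus was 0.66 ± 0.0673 higher (limma, adjusted p = 2.01e-06) and the hypothalamus -0.69 ± 0.0673 (adjusted p = 9.18e-07). *Syt17*, an atypical synaptotagmin without a membrane span, was 9.55, 9.68, 9.51 and 9.63 in the control amygdala. Every other control sample was at or below 9.08, and the amygdala difference was 0.91 ± 0.118 (1.88-fold, limma, adjusted p = 9.32e-05).

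Smaller differences were found in other synaptotagmins. *Syt5* was 10.37 ± 0.12 in the control amygdala (SD, n = 4) and 9.67 ± 0.22 in the hippocampus (SD, n = 5), and *Syt16*, which lacks calcium binding, was 8.35 ± 0.09 and 7.58 ± 0.26. Both were lower in the hippocampus than in the other regions, with differences of -0.55 and -0.60 (limma, adjusted p = 5.5e-05 and 0.00014). Their amygdala differences, 0.39 and 0.43, were not called without control replicate 5 for *Syt5* and without control replicates 1 or 2 for *Syt16*. For *Syt16* the control cortex (mean 8.35, samples 8.16 to 8.61) was level with the amygdala (samples 8.26 to 8.46). *Syt12*, another member that does not bind calcium, was 0.67 higher in the cortex (limma, adjusted p = 0.000331). *Syt4*, which is found on dense-core vesicles, was 0.22 higher in the hypothalamus (limma, adjusted p = 0.00298).

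**Figure D2:**
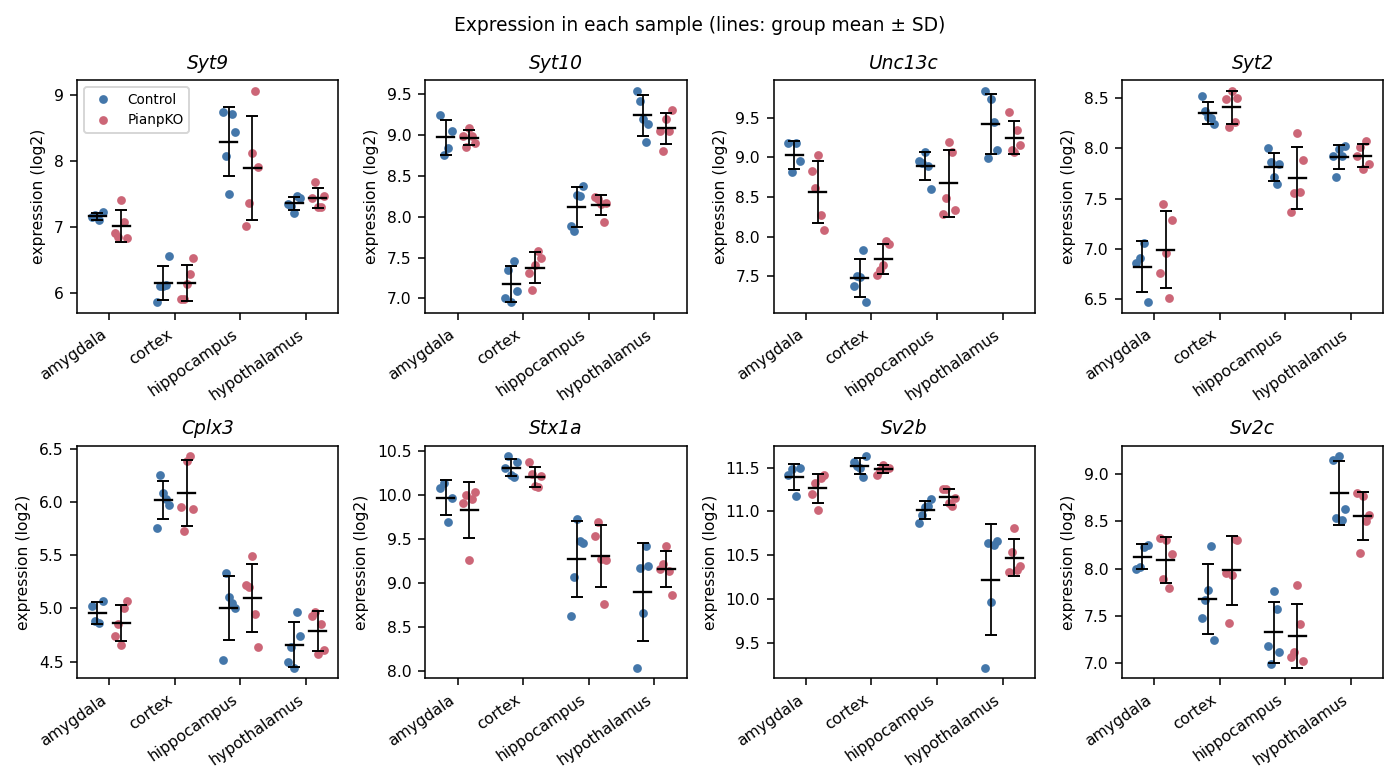
Log2 level of 8 genes of release in every sample, by region, with control and PianpKO samples side by side. Points are samples, and lines are the group mean ± SD. The cortex points lie below all others for *Syt10* and *Unc13c* and above all others for *Cplx3*, and in control mice the amygdala points are the lowest for *Syt2*.

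Complexins 1 and 2 are the common forms of the brain, and complexin 3 is known from the retina and from deep cortical layers. *Cplx3* was dim but set the cortex apart: 5.76, 6.25, 6.08, 6.03 and 5.97 in control cortex, against 4.86 to 5.07 in the amygdala, 4.51 to 5.33 in the hippocampus and 4.44 to 4.97 in the hypothalamus. No cortex sample overlapped a sample of another region. The cortex difference was 1.14 ± 0.0978 (2.21-fold, limma, adjusted p = 1.11e-07), and 1.17 in PianpKO mice. *Cplx1* was 11.15 ± 0.14 in the cortex (SD, n = 5) and 10.33 ± 0.15 in the amygdala (SD, n = 4), with differences of 0.50 (limma, adjusted p = 0.00146) and -0.59 (adjusted p = 0.00272). *Cplx2* was 0.31 higher in the cortex (limma, adjusted p = 0.00228) and -0.33 in the hypothalamus (adjusted p = 0.00138). Its hypothalamus value was 9.27 in control replicate 1 and 9.78 to 9.84 in the other control samples.

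Munc13 proteins prime vesicles. *Unc13c* (Munc13-3, known from cerebellar granule cells) was 7.38, 7.50, 7.49, 7.83 and 7.17 in the control cortex, and 9.84, 8.99, 9.74, 9.45 and 9.09 in the hypothalamus. The amygdala (8.81 to 9.18) and the hippocampus (8.60 to 9.07) overlapped the hypothalamus, and no sample of another region came down to the cortex. The cortex difference was -1.64 ± 0.114 (fold of 0.32, limma, adjusted p = 9.63e-09) and the hypothalamus difference 0.95 ± 0.114 (1.94-fold, adjusted p = 8.21e-06). In PianpKO mice they were -1.11 and 0.93.

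*Unc13a* (Munc13-1, the main form at glutamate synapses of the forebrain) ran the other way, at 10.15 ± 0.10 in the control cortex and 9.46 ± 0.23 in the hypothalamus (SD, n = 5 each). Its differences were 0.43 (limma, adjusted p = 0.000242) and -0.49 (adjusted p = 8e-05). *Unc13b* (Munc13-2) was 7.16 ± 0.06 in the amygdala (SD, n = 4), 0.40 higher than in the other regions (limma, adjusted p = 0.00354). This call was lost without control replicate 2 (adjusted p = 0.0599).

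RIM proteins tether vesicles and calcium channels at the active zone. *Rims1* was 10.28 ± 0.07 in the control cortex and 9.50 ± 0.18 in the hypothalamus (SD, n = 5 each), with differences of 0.49 (limma, adjusted p = 2.13e-05) and -0.55 (adjusted p = 9.1e-06). *Rims4*, a short form, was 0.67 higher in the cortex (limma, adjusted p = 5.06e-05) and -0.40 in the hippocampus (adjusted p = 0.00908). The latter was -0.29 at its nearest to 0, and it was not called without control replicate 5 (adjusted p = 0.0505). *Rims3*, the other short form, was -0.56 in the amygdala (limma, adjusted p = 0.000133), where the 4 control values of 8.46, 8.96, 8.92 and 8.88 lay below all others. *Rims2* did not pass the region test in control mice (limma, adjusted p = 0.62).

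Among vesicle proteins, the SV2 glycoproteins, which carry the binding site of levetiracetam on Sv2a and are receptors of botulinum neurotoxin A, split by region. *Sv2b* was 11.56, 11.52, 11.50, 11.39 and 11.63 in the control cortex and 9.21, 10.64, 9.96, 10.62 and 10.66 in the hypothalamus. All hypothalamus samples lay below all others, and control replicate 1 was lowest. The hypothalamus difference was -1.09 ± 0.154 (fold of 0.469, limma, adjusted p = 4.94e-05) and -0.84 without the hypothalamus sample of control replicate 1.

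*Sv2c*, known from the basal ganglia, was highest in the same region: 9.15, 8.54, 9.19, 8.51 and 8.63 in the control hypothalamus. Hippocampus values were 7.18, 6.99, 7.76, 7.57 and 7.12, and no hypothalamus sample overlapped another region. The differences were 1.09 ± 0.141 (2.13-fold, limma, adjusted p = 1.98e-05) in the hypothalamus and -0.88 ± 0.141 (fold of 0.543, adjusted p = 0.000249) in the hippocampus. *Sv2a* was 0.25 higher in the hypothalamus (limma, adjusted p = 0.00191). Striatal projection neuron markers moved with these regions: 9 of 11 were higher in the hypothalamus punches of control mice (median 0.64) and 7 of 11 were lower in the hippocampus punches (median -0.68). The mean of the 11 markers ran from 8.21 to 8.97 in control hypothalamus samples, 7.76 to 8.40 in amygdala, 7.79 to 8.49 in cortex and 6.97 to 8.13 in hippocampus samples. The part of striatal tissue in the values of *Sv2c* was not tested.

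Synapsins hold vesicles in the reserve pool. *Syn1* was 0.36 higher in the cortex (limma, adjusted p = 9.84e-05) and -0.29 in the hypothalamus (adjusted p = 0.000961), whereas *Syn2* was 0.32 higher in the amygdala (adjusted p = 0.000122) and -0.19 in the cortex (adjusted p = 0.00163). *Syn3* did not pass the region test in control mice (limma, adjusted p = 0.0739). *Syp* encodes synaptophysin, the most abundant vesicle membrane protein, and its region means of 11.76 to 11.89 did not differ past the threshold (limma, adjusted p = 0.276). Its relative *Synpr* (synaptoporin, known from hippocampal mossy fibers) was 8.59, 8.47, 8.42 and 8.56 in the control amygdala and 7.52, 7.60, 7.43, 7.32 and 7.36 in the cortex. The cortex lay below all other control samples, while the amygdala overlapped the hippocampus and the hypothalamus, where 1 sample each reached 8.47 and 8.49. The differences were 0.68 ± 0.115 (1.61-fold, limma, adjusted p = 0.000926) and -0.75 ± 0.106 (adjusted p = 3.91e-05). *Snap91* (AP180, a clathrin adaptor that retrieves vesicles) was 0.17 higher in the cortex (limma, adjusted p = 0.0215). This was not called in PianpKO mice (0.06, limma, adjusted p = 0.325).

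Counted by region, the cortex had 21 genes higher and 8 lower than the mean of the other 3 regions in control mice (limma, adjusted p under 0.05), against 9.73% and 9.49% of all probe sets. In PianpKO mice it was 22 and 10, against 9.87% and 9.72%. The 21 genes are 30.9% of the 68. In the fit of brighter probe sets alone 19.5% were higher in the control cortex, and 21 of 64 brighter genes of release were (32.8%), while the share lower in the cortex (14.1%) was under that of brighter probe sets (18.4%). The 21 comprised 6 of 17 synaptotagmins, 3 of 4 RIMs, 3 of 4 complexins and 3 of 14 syntaxins. Cortical projection neuron markers were higher in the cortex punches, 6 of 9 with a median of 0.56.

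The hypothalamus had 8 genes higher and 18 lower in control mice, against 8.18% and 8.19% of all probe sets, and 6 higher and 16 lower in PianpKO mice, against 7.18% and 7.37%. The 18 lower genes are 26.5% of the 68, and in the fit of brighter probe sets alone 17.3% were lower, as were 19 of 64 brighter genes of release (29.7%). Without the hypothalamus sample of control replicate 1, 5 were higher and 11 lower. Leaving out all samples of control mouse 1 gave 11 lower, leaving out control mouse 3 gave 5 and 10, and leaving out control mouse 4 gave 5 higher. In PianpKO mice 9 were lower without mouse 1 and 8 without mouse 5. These fits use fewer samples, and the share of all probe sets called in them is not given here. Nothing is therefore read from the smaller counts. With all samples, the share of genes higher in the hypothalamus was near that of all probe sets. Cortical projection neuron markers were lower there, 6 of 9 with a median of -0.46, and their mean was 7.55 in control replicate 1 and 7.81 to 8.04 in the other control hypothalamus samples. Of 10 general neuron markers, 1 was higher and 3 were lower in this comparison, from -0.39 to 0.74 with a median of 0.01.

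The amygdala had 9 genes higher and 5 lower in control mice, against 2.99% and 2.93% of all probe sets, and 10 higher and 8 lower in PianpKO mice, against 4.33% and 4.14%. In the fit of brighter probe sets alone 7.38% were higher and 7.39% lower in the control amygdala. Of the 64 brighter genes of release, 11 were higher (17.2%) and 9 lower (14.1%) in that fit. Higher genes numbered 5 without control mouse 2, and 6 in PianpKO mice without mouse 4, in fits whose share of all probe sets is not given. All 8 oligodendrocyte markers were lower in the control amygdala punches, with a median of -0.87, beside *Vamp1*, *Syt2*, *Cplx1* and *Rims3*. Of 11 amygdala markers, 5 were higher and 2 lower there (median 0.40), and of 12 hypothalamus markers 4 were higher and 0 lower (median 0.52). The median sample mean of the amygdala markers was 7.16 in the control amygdala, 7.16 in the hypothalamus, 7.13 in the hippocampus and 6.51 in the cortex. The part of glial content and of dissection in these differences was not tested.

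The hippocampus had 10 genes higher and 7 lower in control mice, against 6.37% and 5.45% of all probe sets, and 7 higher and 10 lower in PianpKO mice, against 6.34% and 5.5%. In the fit of brighter probe sets alone 12.9% were higher and 13.3% lower, and 17.2% of the brighter genes of release in each direction, so that these shares lay near that background. Higher genes numbered 6 without control mouse 1 or mouse 2, and in PianpKO mice 4 without mouse 4 or mouse 5. Lower genes in PianpKO mice numbered 6 without mouse 1 or mouse 4. The share of all probe sets called in these smaller fits is not given either.

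The PianpKO mice were not used in the control fits and give a repeat of the regional pattern in other animals. Of the 86 region differences called in control mice, 67 were called in the same direction in PianpKO mice (77.9%), against 67.0% of the calls over all probe sets. The sign was the same for 85 of 86 (98.8%), against 96.7%. A gene can enter these counts for several regions, and its differences are not independent of each other. The shares over all probe sets were not matched for brightness.

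**Figure D3:**
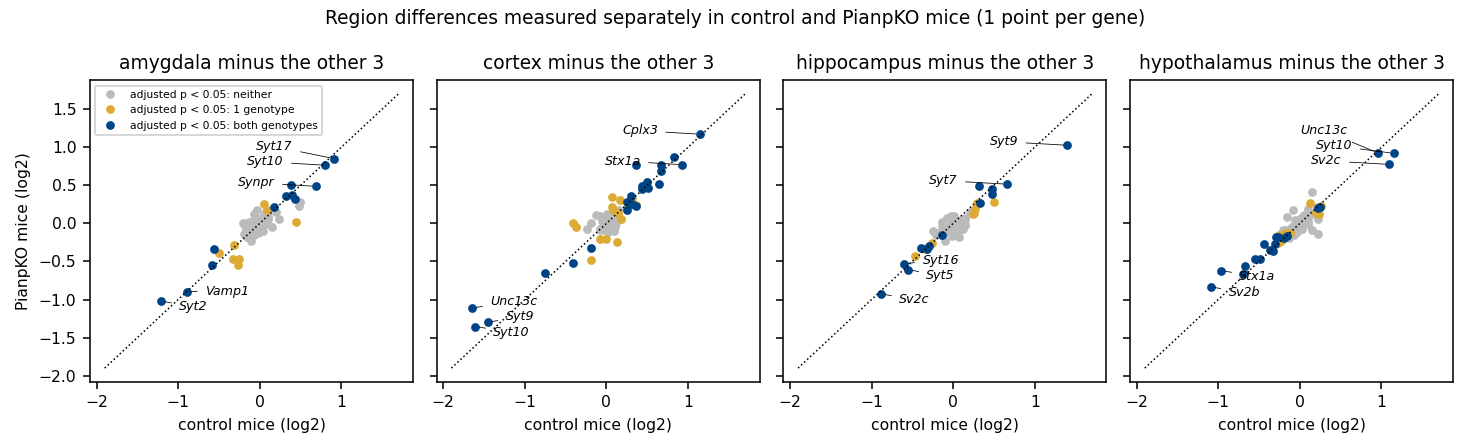
Difference of each region from the mean of the other 3, in control mice (x axis) and in PianpKO mice (y axis), on the log2 scale with 1 point per gene. The dotted line marks equal differences, and most called genes lie close to it, with *Unc13c* in the cortex and *Syt9* in the hippocampus nearer to 0 in PianpKO mice.

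Of 42 other genes of vesicle docking, priming and recycling, 41 had a named probe set. In the control cortex 14 were higher and 6 lower, against 9.73% and 9.49% of all probe sets, and in the hypothalamus 7 were higher and 12 lower, against 8.18% and 8.19%. The hippocampus had 7 higher and 5 lower, against 6.37% and 5.45%, and the amygdala 6 and 1, against 2.99% and 2.93%. These genes were not counted in the fit of brighter probe sets alone, where the shares of all probe sets were 12.9% to 19.5% in the first 3 regions, so nothing is read from their counts. The median difference was 0.07 in the cortex and -0.10 in the hypothalamus. *Bsn* (bassoon, an active zone scaffold) was 0.63 higher in the cortex (limma, adjusted p = 0.00069) and -0.73 in the hypothalamus (adjusted p = 0.00021). *Doc2b*, a soluble calcium sensor of spontaneous release, was -1.55 in the cortex (limma, adjusted p = 1.9e-08), and *Rab3b*, a vesicle GTPase, was -1.09 in the hippocampus (adjusted p = 3.7e-07) and 0.68 in the hypothalamus (adjusted p = 5.2e-05).

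The study asked how loss of *Pianp*, whose protein binds the GABAB receptor that restrains release at presynaptic terminals, changes these tissues. None of the 68 genes differed between PianpKO and control mice after adjustment over all probe sets (limma, adjusted p under 0.05) in any region. The share of all probe sets called was 0.0157% in the cortex, 0.00787% in the amygdala and 0.00393% in the hippocampus as well as the hypothalamus (0.00393%). At an unadjusted p under 0.05, cortex samples gave 2 of 68 genes, against 11.2% of all probe sets, and amygdala samples gave 5, against 8.07%. Hypothalamus samples gave 5, against 5.55%, and hippocampus samples gave 4, against 5.08%. A fit within each region without moderation of variances, after the study's methods, gave 0 adjusted calls as well. Log2 differences of the 68 genes ran from -0.19 to 0.30 for cortex, -0.47 to 0.38 for amygdala, -0.41 to 0.42 for hypothalamus and -0.40 to 0.22 for hippocampus.

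Averaged over the 4 regions, with mouse as a random block, 0 of 68 were called, against 0.319% of all probe sets, and 4 of 68 had an unadjusted p under 0.05, against 14.6%. The 95% interval of the mean effect lay within 0.2 of 0 on the log2 scale for 50 genes, within 0.3 for 64 and within 0.5 for all 68. For the core genes it was -0.06 to 0.10 for *Snap25*, -0.10 to 0.04 for *Syt1*, -0.06 to 0.10 for *Vamp2*, -0.22 to 0.24 for *Stx1a*, -0.13 to 0.09 for *Unc13a*, -0.16 to 0.03 for *Rims1* and -0.03 to 0.10 for *Syp*. Within single regions, intervals stayed inside 0.5 for 65 genes in cortex, 63 in amygdala and 60 in each of the other 2 regions.

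**Figure D4:**
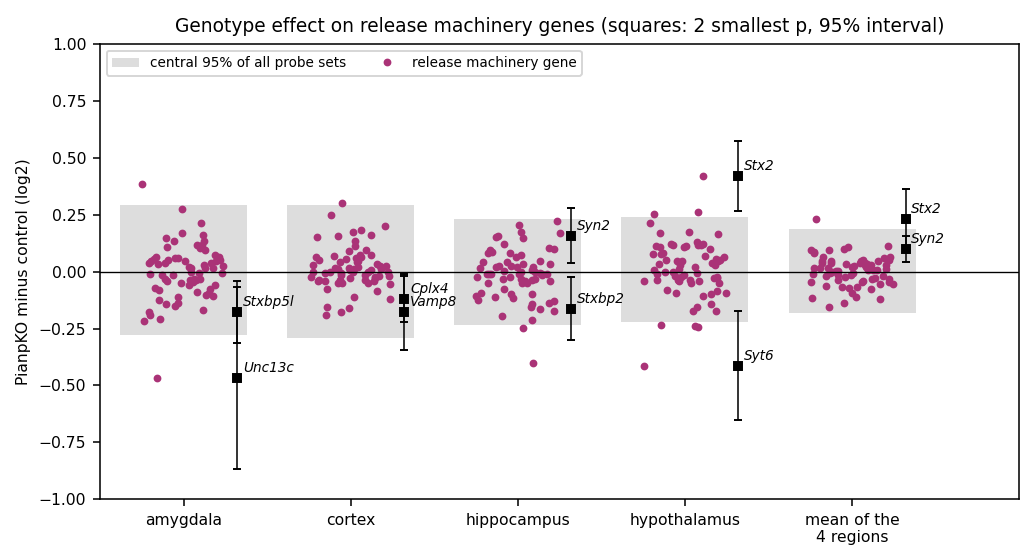
Log2 difference of PianpKO minus control mice for the 68 genes in each region and averaged over the regions, with 1 point per gene. Squares mark the 2 genes with the smallest unadjusted p in each column, with their 95% intervals, and gray boxes span the central 95% of all probe sets. No gene passed an adjusted p of 0.05, and most points lie within 0.3 of 0.

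The smallest unadjusted p belonged to *Stx2* (epimorphin, a syntaxin of the plasma membrane found in many cell types). In the hypothalamus it was 5.72, 5.57, 5.70, 5.48 and 5.67 in control and 5.97, 5.96, 6.08, 6.22 and 6.01 in PianpKO mice. The groups did not overlap, the difference was 0.42 (95% interval 0.27 to 0.57), and the adjusted p was 0.39 (limma, unadjusted p = 7.51e-05). In the amygdala it was 5.73 ± 0.32 (SD, n = 4) and 6.11 ± 0.29 (SD, n = 5), in the hippocampus 5.80 ± 0.16 and 5.96 ± 0.14, and in the cortex 5.85 ± 0.08 and 5.80 ± 0.14 (SD, n = 5 each). The mean effect was 0.23 (0.10 to 0.36, limma, adjusted p = 0.0992). Striatal projection neuron markers were at a median of -0.475 in PianpKO against control mice in the hypothalamus (limma, 0 of 11 called). Of the 11, 6 had an unadjusted p under 0.05, against 5.55% of all probe sets. Their mean per sample was 7.90 to 8.36 in PianpKO mice against 8.21 to 8.97 in controls. Averaged over the regions their median was -0.384 (0 called, 7 at an unadjusted p under 0.05, against 14.6% of all probe sets). Their part in the genotype differences of the hypothalamus and in the mean effects was not tested.

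*Syn2* followed with a smaller difference. Hippocampus values were 11.11, 11.16, 11.20, 11.18 and 11.30 in control and 11.37, 11.35, 11.33, 11.27 and 11.40 in PianpKO mice, where only control replicate 5 reached the PianpKO range. The hippocampus difference was 0.16 (limma, adjusted p = 0.958) and the mean effect 0.10 (0.04 to 0.15, adjusted p = 0.0992). Without control mouse 5 the mean effects of *Stx2* and *Syn2* passed the threshold (limma, 0.27 with adjusted p = 0.0441 and 0.12 with adjusted p = 0.0424), and so they did when samples of a mouse were taken as independent (adjusted p = 0.025 and 0.031). *Syn1* (0.08) and *Rims2* (-0.10) were the other genes with an unadjusted p under 0.05 for the mean effect (limma, adjusted p = 0.302 and 0.281). Without control mouse 1 they were 0.05 and -0.05. In the hippocampus, *Syt7*, *Stxbp2* and *Sv2b* also had an unadjusted p under 0.05 (limma), and none was called. With 1 mouse left out in turn, PianpKO minus control was -0.18 to -0.11 for *Syt7* there. It was -0.19 to -0.13 for *Stxbp2* and 0.11 to 0.18 for *Sv2b*.

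In the amygdala *Unc13c* was 9.18, 8.81, 9.18 and 8.96 in control and 8.83, 8.62, 9.03, 8.27 and 8.08 in PianpKO mice, with overlap. The difference was -0.47 (95% interval -0.87 to -0.07, limma, adjusted p = 0.573), and in the cortex it was 0.25 (-0.02 to 0.51, adjusted p = 0.487). In the amygdala the striatal projection neuron markers had a median difference of -0.57, with a mean of 7.76 to 8.40 in control and 7.29 to 7.60 in PianpKO samples. Of the 11 markers 0 were called (limma), and 8 had an unadjusted p under 0.05, against 8.07% of all probe sets. The part of dissection in the amygdala values was not tested. *Rims3* differed by 0.28 in that region, or 0.16 without control mouse 1, whose value of 8.46 was the lowest, and by 0.21 in the hypothalamus. For *Syt6* the hypothalamus difference was -0.41, at 5.53 ± 0.10 in PianpKO mice and 5.94 ± 0.25 in controls (SD, n = 5 each). None was called after adjustment (limma, adjusted p = 0.612, 0.834 and 0.801). The other named genes of these tests were lower in PianpKO mice and not called. With 1 mouse left out in turn, the amygdala differences were -0.22 to -0.14 for both *Rims1* and *Stxbp5l*. In the cortex they were -0.13 to -0.11 for *Cplx4*, -0.24 to -0.14 for *Vamp8* and -0.21 to -0.10 for *Stxbp6*. For *Stx17* in the hypothalamus they were -0.31 to -0.20.

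Whether the genotype effect depended on the region was tested over all samples with mouse as a random block. It was called for 0 of 68 genes, against 0.0% of all probe sets, and 3 had an unadjusted p under 0.05 (*Stx2*, *Unc13c* and *Syt6*), against 5.15%. The smallest adjusted p among the 68 was 0.908 (limma). The other genes of docking, priming and recycling gave 0 calls in every region and for the mean effect. At an unadjusted p under 0.05 there were 4 of 41 for amygdala samples, against 8.07% of all probe sets. The cortex gave 3, against 11.2%, the hypothalamus 3, against 5.55%, and the hippocampus 0, against 5.08%. For the mean effect there were 8, against 14.6%.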

How the data were processed

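Brain punches of male mice were profiled on Affymetrix Mouse Gene 2.0 ST arrays. The deposited values are log2 intensities. The authors had summarized probes by Entrez gene (custom chip definition, version 21) and quantile normalized the arrays, and the notes of the submitters on processing name RMA. Of 25429 probe sets, 24675 have a symbol in the platform annotation and 754 are unnamed here. All 39 columns were used.

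The values were analyzed without further scaling with limma 3.58.1 and statmod 1.5.0 under R 4.3.3, using lmFit and eBayes. Each region was compared with the mean of the other 3 within each genotype, with mouse as a random block (duplicateCorrelation, correlation of 0.12 in control and 0.078 in PianpKO mice). PianpKO was compared with control within each region, and over all regions in 1 fit with the same block (0.106). Calls are at 0.05 after Benjamini-Hochberg adjustment over all probe sets. The fits were tested on simulated data. The members, lists and tests were chosen with earlier results of these data known. Named genes were a list of core genes of release, 2 of which have no named probe set here, the largest region differences called in both genotypes, and the 4 smallest p-values of each genotype test. Genes of the recycling list were picked after their values were seen. The same replicate number within a genotype is the same mouse, and between genotypes different mice. The paper gives a single age range, spanning months, for several kinds of experiment together and not for the array mice alone. Age, batch and scan date of single samples were not used, so that their part was not tested.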

Additional observations from a re-analysis of the deposited data

Results flagged for a closer look

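Of 328 groups of 4 or 5 samples, 18 held a sample far from the others by Dixon's criterion, which chance gives in about 1 of 20 groups. The hypothalamus sample of control replicate 1 was lowest for *Cplx1* at 9.91 (nearest 10.71) and *Cplx2* at 9.27 (nearest 9.78), and highest for *Rims2* at 9.39 (nearest 9.01). In the control amygdala, *Rims3* was 8.46 in replicate 1 (nearest 8.88) and *Syn2* was 11.53 in replicate 5 (nearest 11.43). *Snap25* was 13.45 in control cortex replicate 3, where the other 4 samples shared 13.25, and *Stxbp5l* was 9.69 in control hypothalamus replicate 4 (nearest 9.21).

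Of the 11 samples in PianpKO groups, 6 were from replicate 3: *Cplx2* at 9.59 (nearest 10.02) and *Stx1a* at 9.26 (nearest 9.91) in the amygdala, *Stx17* at 7.18 (nearest 6.92) and *Syt4* at 10.03 (nearest 10.21) in the cortex, *Vamp8* at 4.7 (nearest 5.49) in the hippocampus and *Stxbp3* at 6.6 (nearest 7.1) in the hypothalamus. In replicate 1, *Syp* was 12.05 in the hippocampus (nearest 11.86) and *Syt5* 10.03 in the hypothalamus (nearest 10.23). *Stxbp5l* was 9.47 in cortex replicate 2 (nearest 9.66), *Syt5* 9.31 in hippocampus replicate 4 (nearest 9.72) and *Synpr* 8.21 in hypothalamus replicate 5 (nearest 8.05).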

How the results depend on the processing

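No result that was recomputed changed its direction. Of the counts recomputed under an alternative, 317 stayed within 1.5 times the reported count and 22 did not. Genes higher in PianpKO mice averaged over regions numbered 2 (*Stx2* and *Syn2*) with no replicate block, and 0 to 2 when each mouse or the hypothalamus sample of control replicate 1 was left out. In 1 fit over all 8 groups, genes lower in the control amygdala numbered 8 and in the control hippocampus 11, and with dim probe sets left out 9 and 11. Leaving out mice gave 5 to 10 genes higher in the control amygdala and 6 to 10 in the PianpKO amygdala, 6 to 10 higher in the control hippocampus and 4 to 8 in the PianpKO hippocampus, and 6 to 10 lower in the PianpKO hippocampus. In the hypothalamus it gave 5 to 6 higher and 10 to 17 lower in control mice and 8 to 16 lower in PianpKO mice. These settings use fewer samples, the share of all probe sets called in each is not given, and the cause was not tested. The setting without the hypothalamus sample of control replicate 1 was chosen after seeing the data.

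With the replicate number as a replicate block, the genotype counts were 0 in each region. The numbers mark different mice in the 2 genotypes and pair nothing. Single genes were recomputed only for the largest region differences called in both genotypes and the smallest p-values of the genotype tests. Of these results, 6 calls were lost under at least 1 setting, that of *Vamp8* in the hippocampus under 7 settings and each of the others under 1 or 2. Other region calls, such as those of *Snap25*, *Syn1*, *Syn2*, *Rims1*, *Unc13a* and *Snap91*, were not recomputed singly. Arrays number 4 or 5 per group, which limits the precision.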
